A study of Mus musculus with 3 samples.

Results

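The Hedgehog pathway loci of the embryonic mouse forelimb were examined in single-nucleus chromatin accessibility (ATAC-seq) data, through the regions that lie in or near 8 genes of the pathway. These were the ligand genes Shh and Ihh, the receptor and membrane genes Ptch1, Hhip and Smo, and the transcription factor genes Gli1, Gli2 and Gli3. A region was taken as a member where a called peak overlapped the gene body or the 20 kb on either side of it in mm10. Peaks of the 3 libraries that overlapped by at least 1 bp were merged into 1 region, which gave 201 member regions of 266531 in the whole data set. Of these, 74 held a peak in every library (shared regions), of 84660 shared regions in all, and 36 of the 74 were at a matched position, meaning 1 peak per library with every pair of peaks overlapping reciprocally by at least 50%.

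The nuclei came from tdTomato+ mesenchymal progenitors (MPs) of C57BL/6J embryos with the genotype Hic1CreERT2/CreERT2; Rosa26LSLtdTomato/tdTomato, whose dams had received 7.5 mg of tamoxifen by gavage at embryonic day 10. Both Hic1 alleles carried the recombinase in all 3 groups, and only cells in which Hic1 was active near the time of tamoxifen, and their progeny, carried the label. The groups were embryos of day 12.5, 14.5 and 16.5, with 1 library each, and values listed without a stage run in this order. The elbow segment was taken at E16.5 and the whole forelimb before that. Dispase released the cells at E12.5 (forelimb pairs pooled), and collagenase with pronase did so later. Stage and library therefore cannot be told apart at any step. Dissociation also changed from E12.5 to E14.5, and limb segment from E14.5 to E16.5. Each cannot be told apart from stage there, and neither can from E12.5 to E16.5. A change within cells and a change in the mix of cells cannot be told apart either. The sort excluded cells with blood and endothelial surface markers. With 1 library per stage no test was possible, and all intervals given here are 95% intervals for counting error alone.

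Hedgehog ligands bind PTCH1 at the cell surface, which releases Smoothened (SMO) from inhibition. Signalling through the primary cilium then keeps GLI proteins from being processed into repressors and lets activators form. Transcription of Ptch1, Gli1 and Hhip is itself induced by the pathway and is widely used as its readout. In the limb bud, SHH from the posterior margin patterns the digits, whereas IHH from maturing chondrocytes regulates growth of the cartilage.

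GLI proteins, encoded by the members Gli1, Gli2 and Gli3, recognise a 9-base motif, GACCACCCA. The sequences that matched it are shown first because the proteins of these members bind it. Binding itself was not measured. Both strands were searched over the stretch that peaks of all 3 libraries covered in each shared region. The full motif occurred 3 times in the 74 member regions, in 3 regions (4.05%). It occurred in 0.822% of the 82077 autosomal shared regions with such a stretch, which were shorter on average than the member regions. Per megabase of common stretch there were 34.1 matches in member regions and 10.0 in all. Of the 3 matches, 2 lay at Ptch1 and 1 lay upstream of Smo. The motif is in capitals below, each sequence runs 5′ to 3′ on the strand that carries the motif, and 10 bases are given on either side.
Ptch1 promoter region, chr13:63566425-63566453, plus strand: aaagtagagaGACCACCCAggtaggcaac
Ptch1 5′ end region, chr13:63573455-63573483, minus strand: tggcgcggcaGACCACCCAcgccgagggc
Smo upstream region, chr6:29719063-29719091, minus strand: acatggtgggGACCACCCAtgtggtagag

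The 7-base core GACCACC occurred 14 times, in 8 of the 74 regions (10.8%, against 7.91% of all autosomal shared regions), with overlapping full matches included. It occurred 4 times in the Gli1 promoter region and 3 times in the Ptch1 promoter region. The Gli2 promoter region held 1 match, an Shh intron region 2, and 2 Gli3 regions 1 each. RefSeq promoter windows (GRCm38.p6, 250 bases before to 50 after the start) were matched for 6 of the 8 members (not Shh or Gli1), and none of the 6 held the motif or its core. Of 32851 RefSeq promoter windows, 0.253% held the full motif and 2.8% the core. The Ptch1 window, on the minus strand at chr13:63565686-63565985, is printed because its gene held most of the full matches. It was 76.3% G+C and held 47 CG pairs, and the median window held 7.
Ptch1 RefSeq promoter: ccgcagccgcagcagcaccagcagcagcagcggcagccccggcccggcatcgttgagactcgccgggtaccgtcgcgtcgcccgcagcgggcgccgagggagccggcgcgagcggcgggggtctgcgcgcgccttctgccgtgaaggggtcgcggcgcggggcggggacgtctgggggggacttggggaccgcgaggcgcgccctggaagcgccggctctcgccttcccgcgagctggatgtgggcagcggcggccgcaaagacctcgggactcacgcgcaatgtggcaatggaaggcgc

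Outside promoters, 3 windows of 300 bases are printed (plus strand, GRCm38, centred on the common stretch) because their regions carry differences between stages or between nuclei that are described below. They lie 13.3 kb upstream of Ihh (chr1:74964710-74965009), downstream of Gli3 (chr13:15741551-15741850) and downstream of Hhip (chr8:79945696-79945995). None held the motif or its core in these bases, so they carry no capitals. Their G+C content ran from 49.0% in the Hhip window to 54.7% in the Ihh window, and the median of windows outside promoters was 47.7%.
Ihh upstream window: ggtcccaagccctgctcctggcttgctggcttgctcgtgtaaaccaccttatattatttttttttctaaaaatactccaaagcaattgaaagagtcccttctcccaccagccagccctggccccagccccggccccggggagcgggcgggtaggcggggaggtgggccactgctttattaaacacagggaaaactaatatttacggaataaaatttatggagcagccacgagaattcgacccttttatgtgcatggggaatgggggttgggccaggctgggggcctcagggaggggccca
Gli3 downstream window: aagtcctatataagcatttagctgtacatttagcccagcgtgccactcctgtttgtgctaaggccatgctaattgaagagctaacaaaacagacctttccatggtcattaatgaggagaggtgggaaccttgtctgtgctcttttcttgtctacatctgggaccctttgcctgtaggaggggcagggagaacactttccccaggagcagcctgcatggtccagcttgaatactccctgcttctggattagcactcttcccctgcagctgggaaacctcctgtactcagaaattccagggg
Hhip downstream window: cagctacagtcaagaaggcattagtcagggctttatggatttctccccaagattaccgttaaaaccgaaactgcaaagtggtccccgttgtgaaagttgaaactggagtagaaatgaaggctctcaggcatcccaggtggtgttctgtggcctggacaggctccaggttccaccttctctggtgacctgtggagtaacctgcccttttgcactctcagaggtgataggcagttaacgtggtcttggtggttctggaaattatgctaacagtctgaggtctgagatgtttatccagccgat

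Depth differed between the libraries and bears on each comparison. Nuclei numbered 8294, 20023 and 14048, with median counts per nucleus of 6003.5, 8575 and 26694. Values are given as counts per 1000000 counts in autosomal shared regions (CPM), where a count is a transposase cut site. Shares of nuclei were taken after each nucleus had been thinned to 1074 fragments in those regions, which left 6223, 20023 and 13796 nuclei. Thinning evens out depth but not peak width, as shares and CPM are both counted over each library's own peaks. Promoters took 50.8%, 58.7% and 49.96% of the counts. Peaks in the Hedgehog windows were fewer at E14.5 (98) than at E12.5 (154) or E16.5 (170), and those of shared regions were mostly narrower, so a comparison with E14.5 was least affected where positions matched. The promoters of the mesenchymal genes Hic1, Prrx1, Pdgfra, Twist1 and Osr1 carried a fragment in 4.48% to 14.3% of nuclei across the libraries. Of 14 promoters of muscle, endothelial, epithelial, blood and Schwann cell genes, 9 had a shared region, with shares of 0.18% to 4.38%. The libraries shared 213 (E12.5 and E14.5), 151 (E12.5 and E16.5) and 401 (E14.5 and E16.5) cell barcodes.

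The Shh locus (chr5:28456815-28467256, minus strand) was the least accessible of the 8 at E16.5, and each of its 4 shared regions was lower at E16.5 than at E12.5. The promoter region (chr5:28466418-28467341), which also holds the starts of a pair of non-coding RNAs, measured 6.73, 5.5 and 2.21 CPM. E16.5 was thus the low library, with a log2 ratio to E12.5 of -1.61 (interval -1.84 to -1.37). The ratio was smaller, and outside that interval, per kb of called width (-1.17) and by share of nuclei (-1.07). At matched depth the promoter region carried a fragment in 0.595% of nuclei (exact binomial interval 0.419% to 0.819%) in the first library, 0.684% (0.575% to 0.808%) in the second and 0.283% (0.201% to 0.386%) in the last. The E16.5 interval lay below both others, which overlapped each other. With depth set over each library's own peaks instead the shares were 0.981%, 0.779% and 0.217%, the first of them above the interval just given. All 3 shares lay within the range found at the promoters of other lineages. Of those 9 promoters 5 were lower and 4 higher at E16.5 than at E12.5, among the former Sox10 (0.948%, 0.559% and 0.406%) and Myod1 (1.75%, 0.559% and 0.703%), and their part in the result was not tested. An intron region (chr5:28464299-28465818) was likewise lowest at E16.5, with 12.3, 12.5 and 5.23 CPM (E16.5 over E12.5 -1.23, -1.40 to -1.07). The exonic region measured 16.5, 19.3 and 11.3 CPM (-0.55) and the region 3′ of the gene 5.32, 3.75 and 2.86 CPM (-0.90). All 4 were at matched positions, and the sum over the window was 40.8, 41.0 and 21.6 CPM, so most of the difference fell between E14.5 and E16.5.

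The distal limb enhancer of Shh lies in intron 5 of Lmbr1, far outside the window, and was read beside it. Of 7 regions in Lmbr1, 3 were shared, and 2 of these were in intron 5. The larger, 847.5 kb from the Shh start (chr5:29314226-29315278), measured 7.09, 3.44 and 2.81 CPM. At matched depth it carried a fragment in 0.691%, 0.4% and 0.391% of nuclei, within the range found at the promoters of other lineages. Its log2 ratio of E16.5 over E12.5 was -1.34 (-1.55 to -1.12), and -0.99 per kb. Peak width was 1053, 515 and 828 bp, and per kb the levels were 6.74, 6.67 and 3.39 CPM, so the lower CPM at E14.5 was not found on that scale. The other (chr5:29293150-29293642) measured 2.53, 1.69 and 2.04 CPM, and its ratio of -0.31 had an interval that reached 0 (-0.63 to 0.02). Beside the larger, a region of intron 5 that was not shared (chr5:29313046-29313808) went the other way, with 1.54 CPM over 439 bp at E12.5, no peak at E14.5 and 3.63 CPM over 763 bp at E16.5. The Lmbr1 promoter measured 30.1, 51.1 and 36.1 CPM. At E16.5 it was higher than at E12.5 (0.26, 0.17 to 0.35) and lower than at E14.5 (-0.50, -0.56 to -0.45). Per kb it was 18.2, 34.4 and 17.6 CPM.

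Ihh (chr1:74945315-74951672, minus strand) had 2 shared regions, and neither passed 2-fold between any pair of stages. The promoter region (chr1:74947871-74952427) measured 23.0, 18.7 and 18.2 CPM, a log2 ratio of E16.5 over E12.5 of -0.34 (-0.45 to -0.23). Shares of nuclei were 2.35%, 1.91% and 1.89%, and the intervals of E12.5 (1.98% to 2.75%) and E16.5 (1.67% to 2.13%) overlapped. The upstream region at -13.3 kb (chr1:74964252-74965638) measured 18.0, 11.6 and 14.1 CPM (-0.35). E14.5 was the low library there, but its peak was also the narrowest (936 bp against 1219 and 1387).

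Among the receptors, the Ptch1 promoter was open at every stage while regions farther into the gene and beyond it were lower at E16.5. Ptch1 occupies chr13:63508328-63573598 on the minus strand. Its promoter region (chr13:63561926-63569699), which holds 1 full GLI motif, measured 125, 152 and 127 CPM. On CPM E14.5 was highest, and E12.5 and E16.5 differed by a log2 ratio of 0.02 (-0.02 to 0.07). It was the most accessible member region, with a fragment in 10.8%, 14.1% and 12.9% of nuclei. By these shares E16.5 (12.31% to 13.44%) stood above E12.5 (10.02% to 11.58%), with intervals apart. The log2 ratio of the shares was 0.255, outside the interval found on CPM, so the 2 measures differed for this step. With depth set over each library's own peaks the shares of E12.5 and E16.5 lay nearer, at 10.9% and 11.8%, the latter below the E16.5 interval just given. They were 16.6% and 21.9% with cut sites as they stand, and 24.9% and 27.3% at the median depth of E12.5. The region over the annotated 5′ end of the gene (chr13:63571940-63574822), with the other full motif, measured 21.8, 26.9 and 24.3 CPM (0.16, 0.05 to 0.27). Inside the gene, an exonic region (chr13:63522417-63530367) measured 74.3, 47.8 and 37.2 CPM, lower at each later stage, and the interval of its ratio of E16.5 over E12.5 was -1.06 to -0.93. It was not at a matched position, and the longest stretch covered in all 3 libraries was 2156 bp. The part of peak width in these values was not tested. A region 3′ of the gene, within Fancc (chr13:63496315-63497458, matched position), measured 13.7, 10.8 and 5.24 CPM (-1.39, -1.55 to -1.23). The highest ratio at Ptch1 was 0.35, in an intron region (chr13:63550979-63553781, 4.55, 1.73 and 5.82 CPM), but per kb of called width this ratio was -0.66, since the peak widened from 1383 to 2801 bp.

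Hhip, which encodes a membrane protein that binds Hedgehog ligands, showed little change of its promoter and falls of distal regions from E12.5 to E16.5. The gene lies at chr8:79965851-80058006 on the minus strand. The promoter region (chr8:80055364-80059409) measured 23.6, 23.3 and 21.8 CPM, with shares of nuclei of 2.33%, 2.25% and 2.23% whose intervals overlapped in all pairs. Per kb of called width it was 5.83, 13.8 and 6.37 CPM, as the E14.5 peak spanned 1687 bp against 4046 and 3423 bp, and E14.5 over E12.5 turned from -0.01 to 1.25. A region 112.1 kb from the 5′ end, beyond the 3′ end of the gene (chr8:79945327-79946407, matched position), measured 18.3, 6.82 and 4.73 CPM. E12.5 stood above both later stages, with a log2 ratio of E16.5 over E12.5 of -1.95 (-2.10 to -1.80), and -1.50 per kb of called width. An intron region (chr8:79994828-79996163) measured 16.2, 14.4 and 8.64 CPM (-0.91, -1.04 to -0.77). The only Hhip region above 0 was small (chr8:80003877-80004442, 2.03, 2.54 and 2.17 CPM), and its ratio of 0.10 had an interval from -0.25 to 0.46.

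Smo (chr6:29735503-29761365, plus strand) stayed within 2-fold over its promoter and flanks from E12.5 to E16.5, and 1 intron region was more than 2-fold lower. Its promoter region (chr6:29734775-29737798) measured 56.3, 62.2 and 45.9 CPM (-0.30, -0.37 to -0.23). The upstream region with a GLI motif, 17.1 kb from the start and within Tspan33 (chr6:29716994-29719782), measured 15.1, 20.2 and 23.4 CPM and rose at each stage, to a ratio of 0.63 (0.51 to 0.76). Peak width rose as well, and per kb the ratio was 0.13. The highest mean level in the Smo window was at a 3′ region that holds the promoter of Ahcyl2 (chr6:29766824-29770262, 59.2, 60.2 and 51.8 CPM). An intron region (chr6:29748280-29749245) had the lowest ratio of the 74, -4.02 (4.82, 3.05 and 0.30 CPM), but its E16.5 peak spanned 163 bp against 966 bp at E12.5, and the ratio per kb was -1.45.

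**Figure D1:**
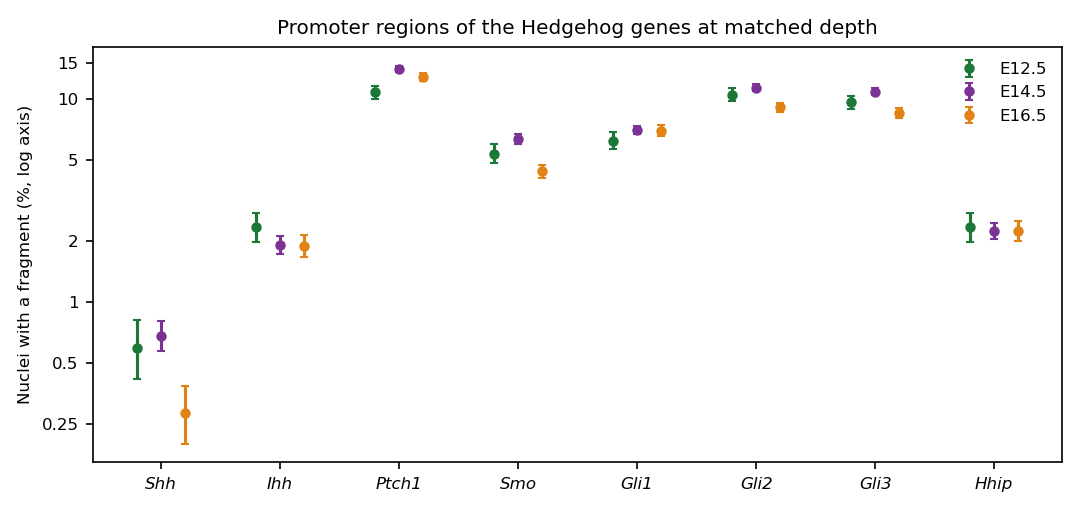
Share of nuclei with a fragment in each gene's promoter region (percent, log axis), by stage, after thinning every nucleus to 1074 fragments; bars are exact binomial intervals for counting error, with 1 library per stage. Shh lies lowest, at 0.283% in the E16.5 library, and Ptch1 highest, at 10.8% to 14.1%.

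The promoter of Gli1, the target gene of the family, was higher on CPM at both later stages. Gli1 lies at chr10:127329882-127341974 on the minus strand. Its promoter region (chr10:127338566-127342920, matched position) measured 60.2, 74.5 and 72.5 CPM. The ratio of E14.5 over E12.5 was 0.31, near the median of 0.26 over 14488 promoters for that step. The ratio of E16.5 over E12.5 was 0.27 (0.20 to 0.33), and the median over those promoters was -0.003. The shares of nuclei, however, were 6.23% (5.65% to 6.86%), 7.03% (6.68% to 7.39%) and 6.98% (6.56% to 7.42%), with intervals that overlapped. Other depth settings put E12.5 and E16.5 farther apart. Their shares were 5.47% and 7.1% with depth set over each library's own peaks, and 8.39% and 12.3% with cut sites as they stand. At the median depth of E12.5 they were 12.4% and 15.6%. Whether intervals overlapped at these settings was not tested for Gli1. Its 5′ flank region (chr10:127350339-127352122) measured 12, 7.08 and 6.23 CPM (-0.95), but 0.11 per kb, as its peak narrowed from 1768 to 848 bp. The 3′ region with the Mars promoter (chr10:127310409-127312972) stayed at 52.1, 54.2 and 50.9 CPM.

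Gli2, whose protein is the main activator of the family, held the largest rises. Its gene body spans 219.5 kb (chr1:118834132-119053619, minus strand) with 22 shared regions, of which 12 were higher and 10 lower at E16.5 than at E12.5. The promoter region (chr1:119046483-119057253) measured 113, 118 and 93.2 CPM (-0.28, -0.33 to -0.23, but -0.11 per kb). A 5′ flank region at -11.5 kb (chr1:119064241-119065923) measured 2.53, 9.97 and 13.9 CPM. Both later libraries stood above E12.5, with a ratio of E16.5 over E12.5 of 2.46 (2.18 to 2.76) and 1.34 per kb. At a matched position, an exonic region 52.0 kb into the gene (chr1:119000891-119002430) measured 3.90, 15.9 and 12.8 CPM (1.71, 1.47 to 1.96, and 1.03 per kb). Intron regions at 77.1 kb and 179.9 kb also passed 2-fold, with 9.89, 20.6 and 28.3 CPM (1.52) and 2.97, 1.99 and 8.10 CPM (1.45), but per kb their ratios were 0.45 and 0.96, short of 2-fold. The largest fall was in an intron region at 151.2 kb (chr1:118901925-118902939, matched position), with 7.15, 3.80 and 1.48 CPM (-2.27, -2.52 to -2.02). The stretch covered in all 3 libraries was 458 bp there. The fifth Gli2 region past 2-fold upwards (chr1:119021991-119023706) rested on an E12.5 peak of 21 bp with 2 fragments, so no ratio is given. Summed over the window the rises and falls cancelled, at 445, 421 and 445 CPM.

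Gli3, whose protein acts mainly as a repressor in the limb bud, moved in both directions. Its gene body spans 266.8 kb (chr13:15463235-15730026, plus strand) with 25 shared regions, of which 10 were higher and 15 lower. The promoter region (chr13:15461511-15470461) measured 104, 109 and 83.1 CPM (-0.33, -0.38 to -0.28), but 0.10 per kb, as its peaks were narrower at E16.5 (6655 bp against 8951 bp). Downstream of the gene, a region at 279.1 kb (chr13:15740930-15743648, matched position) measured 16.8, 46.5 and 39.7 CPM. Its ratio was 1.24 (1.12 to 1.36), or 0.25 per kb, since its peak widened from 1373 to 2719 bp. The share of nuclei, counted over these same peaks, was 2.07%, 4.58% and 4.36%. The largest ratio was 1.26 (0.97 to 1.55), in an intron region at 152.2 kb (chr13:15614710-15616103, matched position, 2.85, 4.74 and 6.82 CPM), and 0.55 per kb. Falls past 2-fold at matched positions were found at 97.5 kb (16.9, 11 and 7.65 CPM, -1.15) and at 201.5 kb (16.3, 10.4 and 7.09 CPM, -1.20). The largest fall, -2.65 (-2.91 to -2.40), was at 28.2 kb (chr13:15490797-15491998, 7.36, 2.30 and 1.17 CPM), and was -1.25 per kb. An intron region at 235.9 kb (chr13:15698457-15699808, matched position) was highest at E14.5, with 12 CPM against 3.67 at E12.5 and 4.14 at E16.5.

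Compared per kb of called width, promoter levels at E16.5 ran from Ptch1 (17.0 CPM per kb, interval 16.8 to 17.2) and Gli1 (16.6, 16.3 to 16.9), whose intervals overlapped, through Smo (15.2), Gli3 (12.5), Gli2 (9.83), Hhip (6.37) and Ihh (4.03) to Shh (3.24). From Smo to Shh no neighbouring intervals overlapped. At E12.5 the order was Smo (19.0), Ptch1 (17.6), Gli1 (14.2), Gli3 (11.7), Gli2 (10.6), Shh (7.28), Hhip (5.83) and Ihh (5.05). Shh stood above Hhip and Ihh at E12.5 on this scale only, since by CPM and by share of nuclei it was the lowest of the 3 at every stage.

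**Figure D2:**
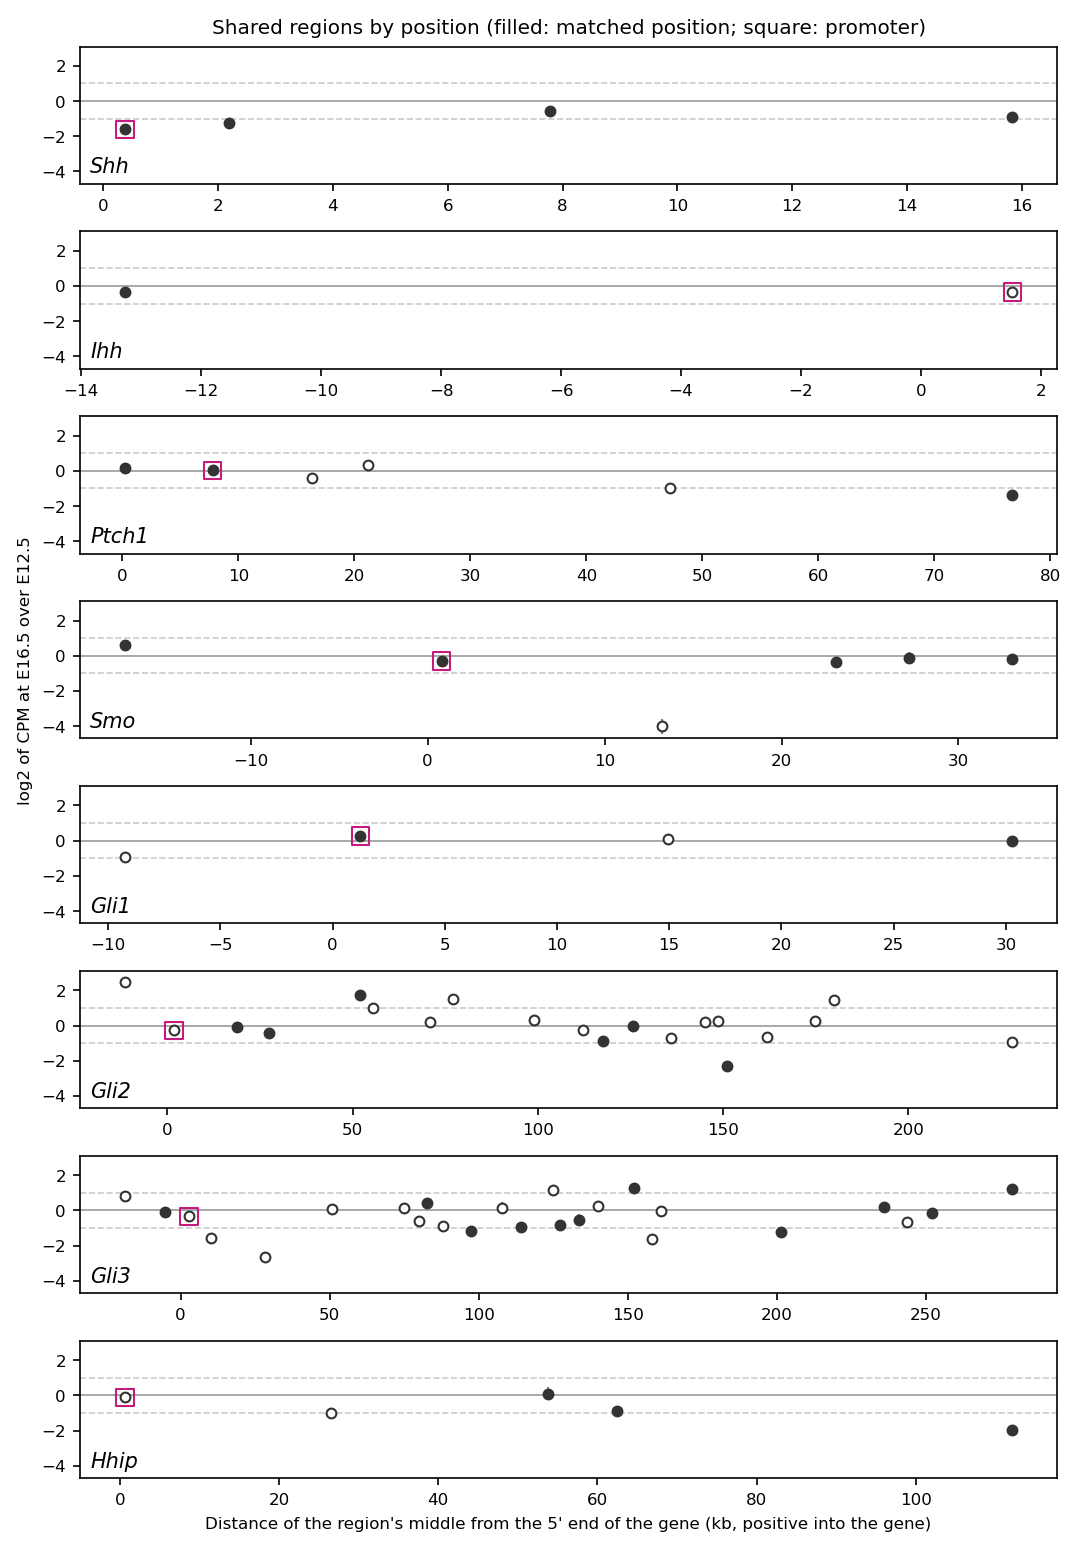
Log2 ratio of CPM at E16.5 over E12.5 for 72 shared regions of the 8 genes (without 1 Gli2 region under 50 fragments and 1 not drawn) against distance from the 5′ end of the gene (kb); filled points are at matched positions, squares mark promoters, grey bars are counting intervals (mostly within the points) and dashed lines mark 2-fold. All 4 Shh points lie below 0, and Gli2 spans -2.27 to 2.46. The promoters of Ihh, Ptch1, Smo, Gli1, Gli2, Gli3 and Hhip lie between -0.34 (Ihh) and 0.27 (Gli1).

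Over all 74 shared regions, the share of members past 2-fold on CPM from E12.5 to E16.5 did not exceed that of autosomal shared regions in general. From E12.5 to E16.5, 8 were at least 2-fold higher, against 18.4% of all regions, and 12 were at least 2-fold lower, against 16.5%. Their median log2 ratio was -0.17, and that of all regions -0.01. Over the 36 matched positions, 3 were higher, near the background of 8.57%, and 7 were lower, a larger share than the background of 12.3%. The medians there were -0.24 for the members and -0.08 for all regions. Over the 74, the share that was lower did exceed that of all regions on other settings, with 12 per kb of called width (16.2% against 10.4%) and 25 at a 1.5-fold threshold (33.8% against 25.8%). The 3 were the exonic Gli2 region at 52.0 kb and the Gli3 regions at 152.2 and 279.1 kb. Those lower were the promoter and an intron region of Shh, the 3′ regions of Ptch1 and Hhip, the Gli2 region at 151.2 kb and the Gli3 regions at 97.5 and 201.5 kb.

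From E12.5 to E14.5, 6 of 74 were higher (background 10.5%) and 10 lower (20.5%). At matched positions 3 were higher (7.25%) and 1 lower (6.04%), the last being the 3′ region of Hhip. From E14.5 to E16.5, 11 were higher (19.8%) and 6 lower (6.91%). At matched positions 1 was higher (2.80%) and 5 were lower, a larger share than the background of 6.92%. These 5 were the Shh promoter and intron regions, the 3′ region of Ptch1, the Gli2 region at 151.2 kb and the Gli3 region at 235.9 kb. Per kb of called width the counts against E14.5 turned: none of the 74 was lower at E14.5 than at E12.5 (background 1.04%), and 9 were higher (13.2%), so the turn was found over all regions too. By shares of nuclei at matched depth, the E16.5 interval lay above the E12.5 interval in 12 regions (16.2%, background 23.7%) and below it in 27 (36.5%, background 23.1%). Those above were 7 of 22 at Gli2, 3 of 25 at Gli3, 1 at Ptch1 and 1 at Smo. Those below were all 4 at Shh, 9 of 25 at Gli3, 5 of 22 at Gli2, 3 of 6 at Ptch1, 3 of 5 at Hhip, 2 of 6 at Smo and 1 of 4 at Gli1.

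**Figure D3:**
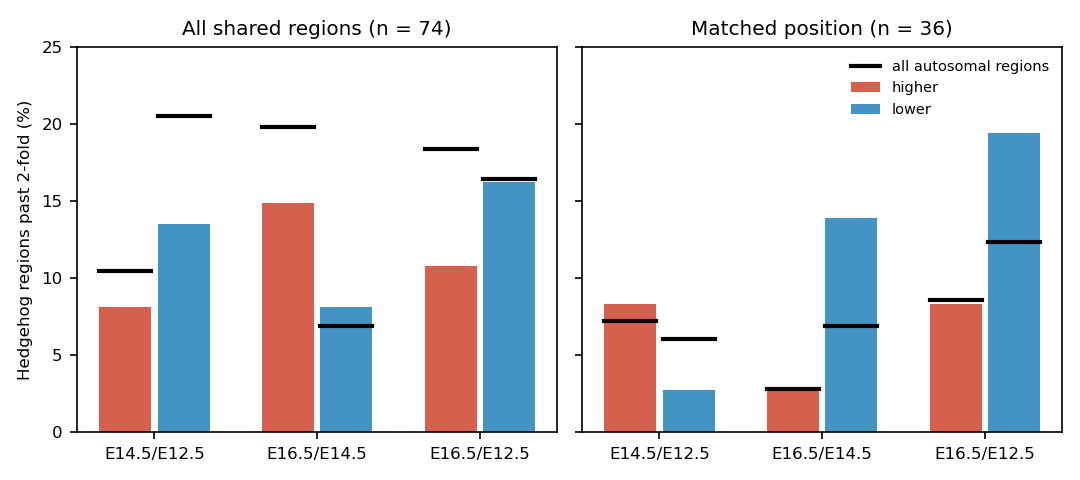
Percent of Hedgehog regions at least 2-fold higher (red) or lower (blue) for each pair of stages, over 74 shared regions (left) and 36 at matched positions (right); black lines give the same percent over all autosomal regions of that kind. At matched positions 7 regions (above the line at 12.3%) were lower at E16.5 than at E12.5, and 3 (near the line at 8.57%) were higher.

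Regions without a peak in every library made up 127 of the 201, and in a library without a peak there the files give no count. Of the 201, 37 (18.4%) had a peak in the E12.5 library only, 0 in the E14.5 library only and 53 (26.4%) in the E16.5 library only. Over all 266531 regions these shares were 19.5%, 0.254% and 27.5%, so those of the members lay near the background. Those called in a single library were weak. The most widely open were an intron region of Ptch1 (chr13:63514566-63515477) and one of Gli3 (chr13:15509824-15510543) at E12.5, each with a fragment in 0.402% of nuclei. At E16.5 it was an intron region of Gli2 (chr1:118938090-118938715), with 0.39%. These shares are after thinning to 1309 fragments over a library's own peaks. Larger signals were found in regions called in 2 libraries, which were picked here after their values were seen. An intron region of Gli3 at 68.6 kb (chr13:15531103-15532586) had 16.9 CPM at E14.5 and 19.7 at E16.5 and no peak at E12.5. Conversely, a Gli3 region at -17.1 kb (chr13:15445658-15446712) had 10.6 CPM at E12.5, 2.05 at E14.5 and no peak at E16.5. At Ptch1, an exonic region (chr13:63541522-63545629) had 18.6 CPM over 4108 bp at E12.5, no peak at E14.5 and 1.55 CPM over 668 bp at E16.5.

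Differences among nuclei within a library were read with locus gates. A gate took the nuclei with the most fragments over the loci of a marker panel, at most 10% of nuclei, and the share of gated nuclei with a fragment in a Hedgehog region was set against that of the remaining nuclei. Gates are ranges of nuclei and not cell types. At E16.5 the chondrogenic gate held 944 of 10537 nuclei, with at least 8 fragments in 78 regions of cartilage genes such as Sox9, Col2a1 and Acan, of which Sox5 gave 28 and Sox6 27, and 250 of these nuclei sat exactly at the limit. Promoters took 52.8% of fragments in the gated nuclei and 49.4% in the rest, and the part of this in the ratios was not tested.

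In chondrogenic-gated nuclei at E16.5, some distal regions of Gli2, Gli3, Ihh, Smo, Ptch1 and Hhip were more often open, and other regions of Gli2 and Gli3 less often. Of 72 member regions tested, 15 were at least 1.5-fold higher (background 12.9%) and 12 at least 1.5-fold lower (29.4%). Gli2 gave 7 of the 15 and 4 of the 12, of 22 tested. Its intron region at 136.0 kb (chr1:118916150-118919075) was open in 19.7% of gated nuclei (17.2% to 22.4%) and 4.76% of the rest (4.35% to 5.21%), a ratio of 4.14. At E14.5 it was open in 6.19% (4.69% to 8.0%) against 2.35% (2.10% to 2.61%), again higher in the gate. At E12.5 the shares were 2.80% (1.04% to 6.00%) and 1.96% (1.63% to 2.35%), with overlapping intervals. In the dermal fibrogenic gate of E12.5 (panel given below) the same region was open in 5.02% (2.53% to 8.81%) against 1.88% (1.55% to 2.26%), with intervals apart. Of 44 member regions tested in the chondrogenic gate of E12.5, 4 were higher (background 14.6%) and 9 lower (25.2%). The Gli2 intron region at 112.3 kb was among the higher there. It was open in 5.61% (2.93% to 9.59%, 12 gated nuclei) against 1.80% (1.48% to 2.17%), with intervals apart. The Gli2 intron region at 125.7 kb was open in 7.42% of gated nuclei against 1.72% at E16.5 (4.31), and that at 145.2 kb in 7.73% against 2.66% (2.91). Lower in the gate were the Gli2 regions at -11.5 kb (3.60% against 7.32%), 52.0 kb (4.03% against 6.25%), 174.7 kb (3.92% against 7.59%) and 179.9 kb (2.54% against 4.75%), all 4 with intervals apart.

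The Ihh region at -13.3 kb was open in 21.3% of chondrogenic-gated nuclei (18.7% to 24.0%) against 6.31% of the rest (5.83% to 6.81%), a ratio of 3.38. At E14.5 its shares were 4.93% and 2.75% (1.79), whereas at E12.5 they were 0.935% (2 of 214 gated nuclei) and 2.16%, with overlapping intervals. Over the Ihh promoter the shares at E16.5 were 13.2% (11.1% to 15.6%) against 8.84% (8.28% to 9.43%), just short of 1.5-fold. The Smo upstream region with the GLI motif was open in 29.3% of gated nuclei (26.5% to 32.4%) against 10.6% of the rest (9.99% to 11.2%). At Hhip, the region 3′ of the gene was open in 6.04% against 2.40% (2.52), although in the whole library its level was lowest at E16.5. The Ptch1 intron region at 21.2 kb was open in 6.36% against 2.82% (2.25). A small intron region of Hhip (53.8 kb) was lower, with 0.53% against 1.24% and overlapping intervals. Of 24 Gli3 regions tested, 2 were higher and 6 lower, and the intervals were apart for both of the former and 4 of the latter. The higher ones were at 74.9 kb (4.03% against 2.28%) and 235.9 kb (4.24% against 2.01%). Among the lower, the one at 152.2 kb was open in 1.27% of gated nuclei (0.659% to 2.21%) against 4.09% (3.70% to 4.50%), and that at 127.4 kb in 4.66% (3.41% to 6.21%) against 11.6% (10.9% to 12.2%).

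In the dermal fibrogenic gate (879 nuclei at E16.5, 32 panel regions, among them those of Twist2, Lef1 and Axin2), 12 of 72 regions were higher (background 12.3%) and 12 lower (22.1%), and Gli3 gave 5 of the former and 8 of the latter. Its intron regions at 88.1 kb (12.2% against 5.57%, ratio 2.19), 133.7 kb (3.19% against 1.2%, 2.65) and 140.1 kb (10.9% against 5.34%, 2.04) were higher. Those at 152.2 and 201.5 kb were higher by 1.66 and 1.58 times, and all 5 had intervals apart. Of the 8 that were lower, by 0.404 to 0.639 times, 4 had intervals apart, among them the regions at 114.1 kb (2.39% against 5.77%) and 279.1 kb (10.8% against 19.8%). Of the higher ones, the region at 140.1 kb was also higher at E14.5 (2.80% against 1.09%), and that at 88.1 kb was not (3.34% against 3.2%). Gli2 gave 6 higher regions, by 1.52 to 1.85 times and all with intervals apart, and 1 lower. The lower one, at 52.0 kb, which rose from E12.5 to E16.5 in the whole library, was open in 2.39% (1.48% to 3.63%) against 6.39% (5.91% to 6.89%). The region at 174.7 kb was higher at E16.5 (12.5% against 6.78%) and at E14.5 (3.16% against 1.52%).

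In the remaining gates fewer of the 72 member regions passed 1.5-fold. So did fewer of all regions, whose percents are given in parentheses as the background, so the smaller counts were not particular to the members. The tenogenic gate (24 regions of Scx, Mkx and other tendon genes) had 5 regions higher (7.36%) and 7 lower (10.2%), with the Ptch1 intron region at 16.3 kb at 16.8% against 9.77% (1.72) and the Gli3 region at 235.9 kb at 4.39% against 1.99% (2.21). At E14.5 neither stood out, with 3.65% against 3.76% and 2.74% against 2.76%. The fibrogenic gate (23 regions, among them those of Dpt, Pi16 and Clec3b) had 3 higher (6.90%) and 9 lower (15.8%), and the intervals of gated and other nuclei were apart in 1 region each way. The perineural gate (12 regions, among them those of Cldn1, Slc2a1 and Itgb4) had 2 higher (4.18%) and 6 lower (10.0%), and the Gli2 region at 179.9 kb was open in 7.74% of its nuclei against 4.25% (1.82). The Ptch1 promoter was equally open in perineural-gated nuclei and the rest at E16.5, with 49.6% (46.3% to 52.9%) against 50.1% (49.1% to 51.1%). Promoters of Ihh, Gli1, Gli2, Gli3, Smo, Ptch1 and Hhip stayed within 1.5-fold in each of the 5 gates at E16.5. The Shh promoter did not, at 0.408% against 1.23% in the tenogenic gate and 1.85% against 1.13% in the fibrogenic gate, but these rest on 4 and 8 gated nuclei and the intervals overlapped.

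**Figure D4:**
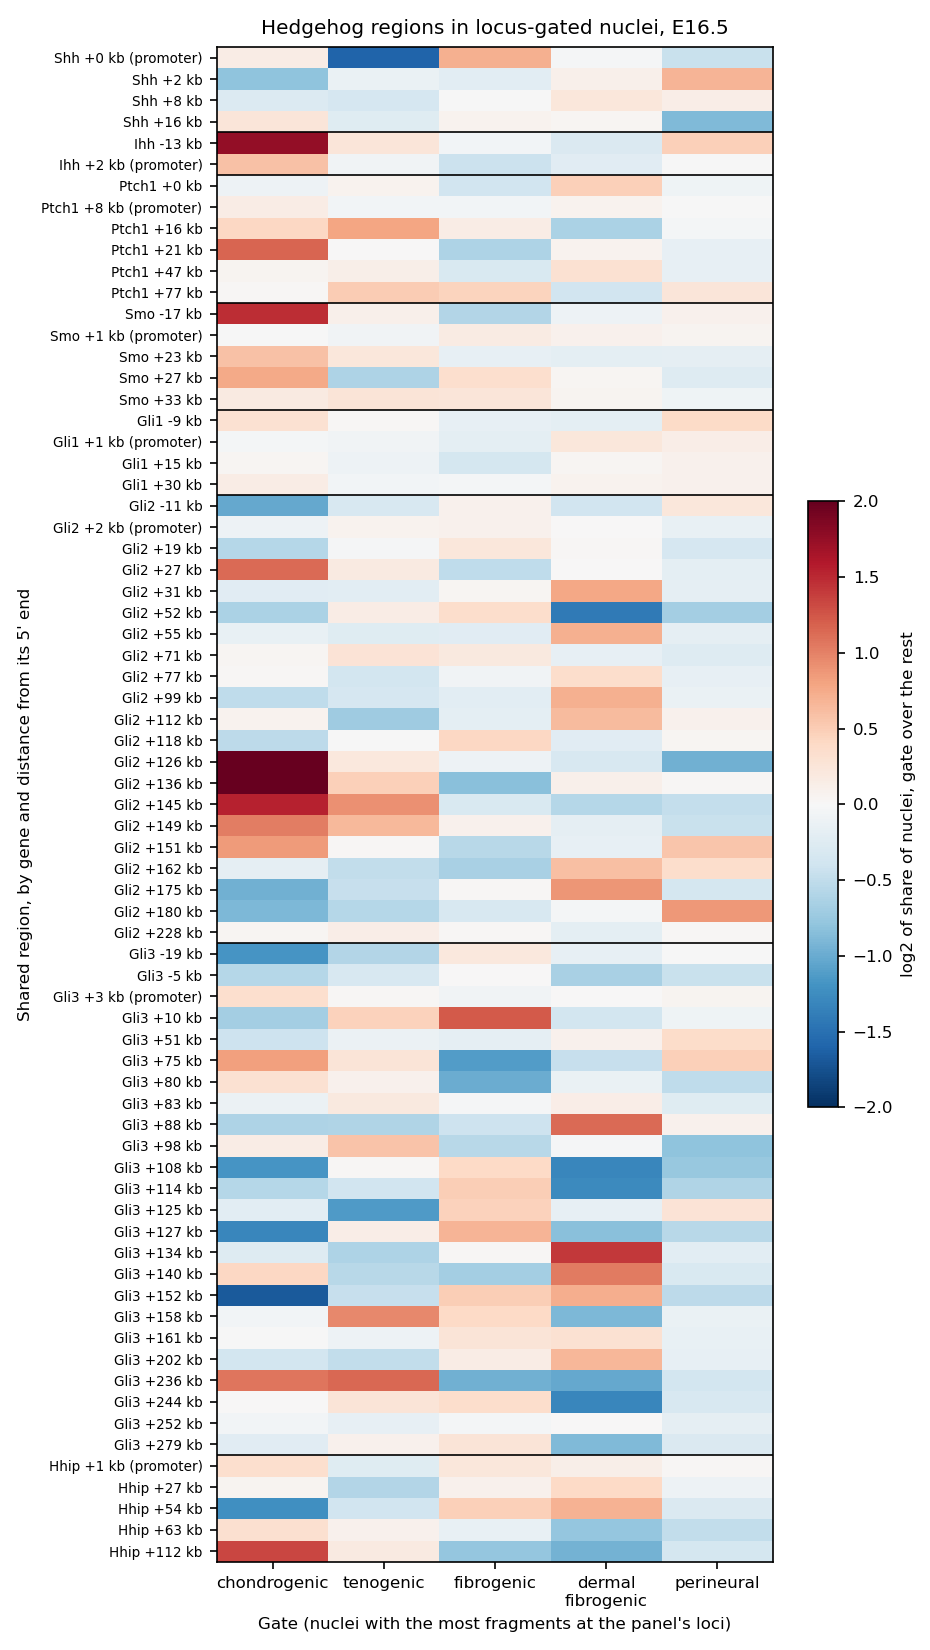
Log2 ratio of the share of nuclei with a fragment, gated nuclei over the rest, for Hedgehog regions (rows, by gene and distance from its 5′ end in kb) in 5 locus gates (columns) of the E16.5 library; red is higher in the gate, and colours end at 2 and -2. The Gli2 regions at 126, 136 and 145 kb, the Ihh region at -13 kb and the Smo region at -17 kb are red in the chondrogenic column, where several Gli3 regions are blue, and promoter rows are pale except for Shh.

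Beyond the 8 members, 46 genes of the pathway had a shared promoter region (45 regions, as Evc and Evc2 share 1), from ligand release and co-receptors through the cilium to limb targets. Their median log2 ratio of E16.5 over E12.5 was -0.07, against 0.00 for 14488 promoters in all, and 19 were higher and 27 lower. Of all promoters 1.82% were at least 2-fold higher and 2.79% at least 2-fold lower, and of the 46 only 1 passed 2-fold on CPM, Gpr161, which encodes a ciliary receptor that restrains the pathway (2.09, 1.97 and 6.49 CPM, 1.63), with a peak that widened from 533 to 1207 bp and a ratio of 0.45 per kb. The largest fall on CPM was at Grem1, a target of SHH signalling in the limb bud, with 47.2, 45.9 and 28.2 CPM (-0.74, matched position). Per kb of called width none of the 46 was at least 2-fold higher (0.421% of all promoters) and 2 were at least 2-fold lower (2.20%), namely Grem1 (-1.14) and Pthlh (-1.19), which encodes a signalling partner of IHH in cartilage and measured 53.9, 39.4 and 36.5 CPM. The co-receptor genes Gas1 (143, 152 and 108 CPM, -0.41), Cdon (80.6, 92.2 and 69.3 CPM, -0.22) and Boc (38.1, 46.9 and 41.4 CPM, 0.12) stayed within 2-fold on CPM, as did Sufu, which encodes a GLI inhibitor (104, 96.8 and 81.4 CPM, -0.35).

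Promoters whose 2 stage ratios (E14.5 over E12.5 and E16.5 over E14.5) lay nearest to those of the readout genes were also listed, among promoters within 2-fold of the same mean CPM. For Ptch1 these were Nipbl, Gapdh and Nlgn2 among 1230 promoters, at distances of 0.0036 to 0.016 on the log2 scale. For Gli1 they were Coasy, Ftl1 and Dbn1 among 7158, and for Hhip Dazl, Mettl7a1 and Pck2 among 8726. Such patterns were common, as 154, 281 and 211 promoters respectively lay within 0.1.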

How the data were processed

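Nuclei of tdTomato+ MPs were profiled with 10x Genomics single-cell ATAC-seq, with 1 library per stage. The authors aligned reads to mm10 and called peaks and barcodes with Cell Ranger ATAC; version 1.1.0 is given in the processing notes, whereas the matrix headers give 1.0.1 for E12.5 and E14.5 and 1.2.0 for E16.5. The deposited matrices hold counts of cut sites per peak and barcode, mostly in pairs, with no further normalisation, and the deposited peak lists hold coordinates per library.

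Peaks were merged and annotated with GENCODE M21 (promoters ran from 1000 bp before a transcript start to 100 bp after it; no peak ran past a GRCm38 autosome end). The members, gene lists and gates were chosen with earlier results of these data known. For each member its promoter region, the region with the highest mean CPM and those with the largest rise and fall from E12.5 to E16.5 were named, if at least 50 fragments lay in each library, with the most widely open regions called in 1 library alone. Log2 ratios of CPM carry exact conditional binomial intervals on fragments (cut sites divided by 2, rounded up), and shares carry exact Clopper-Pearson intervals; as reads lack molecular identifiers, both cover counting error only. A change was called at 2-fold, or at 1.5-fold for gates, which used regions over the gene body and 2000 bp upstream, none within 100000 bp of a member, in nuclei thinned to 1074, 2410 and 5656 fragments, and tested regions open in at least 1% of nuclei. The panels and pathway genes followed general knowledge of the lineages and the study. Doublets were not removed. One Gli2 region enters the counts but is not reported here or drawn. Alternatives changed the scaling, width, position, flank, threshold, depth and gate size. Python 3.11.15, numpy 2.4.6, pandas and scipy were used, and the ratio, thinning and gate steps were tested on simulated data.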

Additional observations from a re-analysis of the deposited data

How the results depend on the processing

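No paired analysis was possible because each stage has 1 library, and for the same reason no library could be left out. Percents in parentheses are the shares over all regions under the same setting. Per kb of called width, 0 member regions (1.04%) were at least 2-fold lower at E14.5 than at E12.5, 0 (0.688%) were higher and 19 (17.3%) lower at E16.5 than at E14.5, and 3 (6.56%) were higher at E16.5 than at E12.5. At matched positions alone (36 regions), 3 were higher and 1 lower at E14.5 than at E12.5, 1 was higher at E16.5 than at E14.5, and 3 were higher and 7 lower at E16.5 than at E12.5; fewer regions enter by construction. With a 1.5-fold threshold 29 of 74 (33.7%) were lower at E14.5 than at E12.5, 11 (14.1%) at E16.5 than at E14.5 and 25 (25.8%) at E16.5 than at E12.5. Shares with cut sites as they stand put 19 regions (35.9%) higher at E16.5 than at E12.5. Summed over the 5 gates, 220, 280 and 360 ratios were tested by stage, and a 2-fold threshold left 7 higher (3.13%) and 24 lower (13.1%) at E12.5, 5 (0.984%) and 13 (3.84%) at E14.5, and 16 (3.25%) and 14 (7.55%) at E16.5. Thinning to the E12.5 depth, with 200 ratios tested, gave 8 (3.43%) and 11 (8.24%) at E14.5 and 19 (6.75%) and 27 (15.2%) at E16.5, and gating the top 5% gave 79 of 360 (24.7%) lower at E16.5. The other counts stayed within 1.5 times. Median-ratio scaling shifted all log2 ratios by 0.16 (E14.5 over E12.5), -0.14 (E16.5 over E14.5) and 0.02 (E16.5 over E12.5). Of the 48 window and promoter ratios, the 2 past 2-fold on CPM kept their sign, while the sign changed in 28 of all 240 alternatives (16 ratios of 7 genes), 14 of them per kb. Window sums moved beyond their counting interval in 78 of 144 alternatives, promoter ratios in 52 of 96 and promoter shares in 58 of 72. These tallies are in part fixed by the settings and do not measure how firm the values are. Thinning to 2541 instead of 1074 fragments raises shares by construction, and counting cut sites singly tends to do so. Some alternatives leave a window unchanged, as at Shh, and cannot move its sum. The widest turns were both of E14.5 over E12.5 at Hhip, with the window sum at -0.53 on CPM and 0.75 per kb and the promoter at -0.01 and 1.25. At E12.5 the shallow depth left 44 member regions open in at least 1% of nuclei, against 56 and 72 later.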
